A study of Mus musculus with 27 samples.

Results

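The 10 genes that mark smooth muscle cells, pericytes and myofibroblasts and that are followed here across postnatal life of the mouse heart are Acta2, Tagln, Myh11, Cnn1, Myl9, Pdgfrb, Rgs5, Notch3, Cspg4 and Kcnj8. They were taken by symbol from both deposited tables of raw counts, and all 10 were present among the 22855 genes that each table lists. Gene expression was measured by RNA-Seq of polyA RNA in C57Bl/6 mice at 5 ages, namely postnatal day 1, 4 and 14 weeks, and 1 and 1.5 years, and no group carried a transgene, a deletion or a treatment. The cardiac fibroblasts were sorted by flow cytometry for PDGFRα, with 3 samples each at postnatal day 1 and 4 weeks and 2 samples at each of the 3 later ages. The whole hearts comprised 3 samples at each age, so that 12 fibroblast and 15 heart libraries entered the comparisons. The study asked how the transcriptional program of fibroblasts and of the heart changes with age. According to the methods, separate animals and separate sets of fibroblasts were used at each age. The paper also states that fibroblasts and their hearts of origin were both sequenced, so libraries of the tissues may share animals. The labels do not tie a library to an animal, and the main comparisons between tissues treated all libraries as independent. The p-values therefore measure the spread between these samples.

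Smooth muscle cells wrap arteries and contract through actin, myosin and the proteins that regulate them, while pericytes lie on capillaries within the endothelial basement membrane. Both are mural cells, which endothelial cells recruit through platelet-derived growth factor B acting on the receptor that Pdgfrb encodes, and whose arterial identity depends on Notch3. Acta2 and Tagln also mark myofibroblasts, the contractile form that fibroblasts take in healing wounds. Fibroblasts of the heart express PDGFRα and, in addition, Pdgfrb, so that no single gene among the 10 defines one cell type.

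The sort label was checked against marker lists, whose levels are given in CPM, that is, counts scaled to the effective size of the library. The 9 fibroblast markers, Pdgfra among them, summed to 34899 to 76770 CPM in the fibroblast libraries and to 1473 to 3423 CPM in whole hearts. The 9 cardiomyocyte markers summed to 749 to 834 CPM in fibroblasts at postnatal day 1, to 18.8 to 226 CPM at later ages, and to at least 40587 CPM in every heart. The 9 endothelial markers, none of which was at 0 in any group, were present in the sorted cells: their sum in fibroblasts, with both tissues scaled together, was 61.6% of that in hearts at postnatal day 1 and 159% at 14 weeks. Higd1b, a pericyte marker, was at or under 3 counts in every fibroblast library of postnatal day 1 and 4 weeks, and was at least 107-fold and at least 255-fold higher in the hearts of those ages. P2ry14, of the same list of 18 other pericyte genes, was also at or under 3 counts in those fibroblast libraries. It was at least 52.6-fold and at least 165-fold higher in the hearts. The sum of the list did not share this course. That sum was 668 to 849 CPM in neonatal fibroblasts and 469 to 570 CPM in neonatal hearts, with each tissue scaled on its own. At 4 weeks the sums were 1358.5 to 1431 CPM in fibroblasts and 860 to 881 CPM in hearts. In the fibroblast sums Cd248, which fibroblasts also make, had a mean of 138 CPM at postnatal day 1 and 763 CPM at 4 weeks. Libraries held 46091271 to 76758831 counts and no 2 libraries of a group were identical. Genes of the mitochondrial genome took 10.8% to 34.5% of the counts in hearts and 1.74% to 9.18% in fibroblasts. In bulk RNA, fewer cells of a type and less RNA per cell cannot be told apart.

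The upstream sequences of 3 members are shown because their levels in the heart moved in opposite directions after birth: those of Myl9 and Acta2 fell and that of Rgs5 rose. Sequences are from RefSeq (GRCm38.p6), run 5′ to 3′ on the strand of the gene, and capitals mark matches to motifs of smooth muscle promoters, the CArG box bound by serum response factor, the MCAT element bound by TEAD factors (CATTCC, either strand) and TGGGAA.

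Myl9, chr2:156775214-156775419 (+), both CArG matches in capitals: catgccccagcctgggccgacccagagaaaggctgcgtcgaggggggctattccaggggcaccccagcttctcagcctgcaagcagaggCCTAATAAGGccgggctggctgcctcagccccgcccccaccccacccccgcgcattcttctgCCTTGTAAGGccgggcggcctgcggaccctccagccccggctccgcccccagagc

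Rgs5, chr1:169655251-169655500 (+), no match to any of these motifs: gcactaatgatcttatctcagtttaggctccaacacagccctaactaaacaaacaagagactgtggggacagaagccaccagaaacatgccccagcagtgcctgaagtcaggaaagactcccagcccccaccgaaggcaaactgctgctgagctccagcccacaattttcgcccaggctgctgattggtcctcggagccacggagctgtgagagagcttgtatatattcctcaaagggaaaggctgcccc

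Acta2, chr19:34255502-34255531 (-), MCAT in capitals: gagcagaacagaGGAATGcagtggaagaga

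Acta2, chr19:34255438-34255467 (-), CArG-like match in capitals: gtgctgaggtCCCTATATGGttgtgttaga

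Acta2, chr19:34255387-34255416 (-), CArG-like match and the overlapping TGGGAA in capitals: gtctttgctCCTTGTTTGGGAAgcgagtgg

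The Myl9 sequence spans positions -250 to -45 and the Rgs5 sequence positions -250 to -1, counted from the RefSeq start. The GENCODE start of Myl9 lies 44 bases, and that of Acta2 217 bases, upstream of RefSeq's, so that the Acta2 stretches lie within the GENCODE transcript. Myl9 held an exact CArG box at positions -161 to -152, a motif found in 1.47% of 32851 promoters of this table. With 1 mismatch allowed in its A/T stretch, Myl9 held another at -99 to -90 and Acta2 held 2, at -84 to -75 and at -34 to -25, where 8.59% of promoters held at least 1. The MCAT element of Acta2 lay at -146 to -141 and its TGGGAA at -27 to -22, motifs present in 12.6% and 21.6% of promoters. Of the 7 members with a promoter in the table, the other 5, Rgs5, Notch3, Cspg4, Kcnj8 and Cnn1, had none of these motifs in the 250 bases before the start. A match is a description of letters and not of binding.

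Among the contractile genes of the fibroblasts, Acta2 and Tagln fell between postnatal day 1 and 4 weeks, Myh11 rose, and Myl9 and Cnn1 did not pass the test, in a comparison in which 15.5% of all genes tested passed. Acta2 encodes the smooth muscle actin of contractile filaments. Its level in fibroblasts was 34.0, 148 and 87.3 CPM at postnatal day 1, 34.8, 28.9 and 33.6 CPM at 4 weeks, 98.4 and 65.3 CPM at 14 weeks, 61.5 and 59.8 CPM at 1 year, and 45.2 and 80.9 CPM at 1.5 years. One neonatal library lay within the range of 4 weeks and the other 2 lay well above it, so the groups overlapped. The log2 fold change of Acta2 from postnatal day 1 to 4 weeks was -1.47 ± 0.40 (SE, edgeR adjusted p = 0.0245), and the call was lost without any 1 of 5 of the 6 libraries, at edgeR adjusted p = 0.0522 to 0.114, with a log2 fold change of -0.91 without neonatal replicate 2. Tagln, which encodes the actin-binding protein transgelin, was at 20.5, 46.1 and 45.2 CPM at postnatal day 1 and at 8.49, 17.5 and 17.0 CPM at 4 weeks. All 3 libraries of 4 weeks lay below all 3 neonatal ones, and Tagln fell by 1.38 ± 0.38 on the log2 scale (SE, edgeR adjusted p = 0.0246), a call lost without 4-week replicate 1 or neonatal replicate 2 or 3 (edgeR adjusted p = 0.0766 to 0.0878). On the opposite strand, the antisense gene Gm48529 and the protein-coding gene Pcsk7 overlap 62.4% and 5.4% of the exonic bases of Tagln (GRCm38) and the strand setting of the counting is not given in the sources used here, so that reads of Tagln and of these genes cannot be told apart.

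Myh11, the myosin heavy chain of smooth muscle, ran the other way. Its level in fibroblasts was 5.27, 1.48 and 1.54 CPM at postnatal day 1, 10.7, 4.50 and 28.6 CPM at 4 weeks, 110 and 81.8 CPM at 14 weeks, 73.9 and 70.6 CPM at 1 year, and 31.1 and 66.2 CPM at 1.5 years. Every library from 14 weeks onward lay above every library of the first 2 ages. Myh11 rose from postnatal day 1 to 4 weeks by a log2 fold change of 2.39 ± 0.63 (SE, edgeR adjusted p = 0.0206), where 1 neonatal library lay above the lowest 4-week library and the call was lost without neonatal replicate 2 or 3 (edgeR adjusted p = 0.0766 and 0.0801), in a fit of only these 2 ages (0.0762), and without 4-week replicate 3, where the log2 fold change was 1.45 (0.1). Without neonatal replicate 1, the highest of its group, it was 3.27 (edgeR adjusted p = 0.00605). It rose again from 4 to 14 weeks by 2.72 ± 0.66 (SE, edgeR adjusted p = 0.0404), a call lost without either 14-week library (edgeR adjusted p = 0.131 and 0.231) and without 4-week replicate 1 or 2 (0.148 and 0.0885), and in a fit of only these 2 ages (0.0717). Without 4-week replicate 3 this step was 3.66 (edgeR adjusted p = 0.0098). Between postnatal day 1 and 1.5 years Myh11 was 17.5-fold higher, a log2 fold change of 4.13 ± 0.70 (SE, edgeR adjusted p = 0.00117). The endothelial marker sum moved with Myh11 in part. It was 2186 CPM in 4-week replicate 3 against 648 and 752 CPM in the other libraries of that age, 1543 and 1828 CPM at 14 weeks, and 341 and 1523 CPM in the 1.5-year libraries in which Myh11 was at 31.1 and 66.2 CPM. At 1 year it was 521 and 735 CPM, close to the 489 to 747 CPM of postnatal day 1, while Myh11 was above 70 CPM in both 1-year libraries. The part of endothelial RNA in the rise of Myh11 was not tested.

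Cnn1, which encodes calponin, a protein that restrains smooth muscle myosin, was at 0, 0 and 0.0147 CPM in fibroblasts at postnatal day 1 and at 0.0134, 1.21 and 0 CPM at 4 weeks. Later values were 2.94 and 1.51 CPM at 14 weeks, 2.38 and 2.48 CPM at 1 year, and 0.975 and 4.80 CPM at 1.5 years. Against a floor of 3 counts in each neonatal library, Cnn1 was at least 69.5-fold higher at 1.5 years (edgeR adjusted p = 0.033), and the call was lost without 1.5-year replicate 5 or any neonatal library (edgeR adjusted p = 0.0621 to 0.137) and in a fit of only these 2 ages (0.0544). The limit itself was 23.5-fold without 1.5-year replicate 5 and 115-fold without replicate 4. Myl9, a regulatory light chain of smooth muscle myosin, was the flattest member in fibroblasts: its group means ran from 31.1 ± 12.5 CPM (SD, n = 3) at 4 weeks to 39.7 ± 3.88 CPM (SD, n = 2) at 14 weeks. The ranges of all neighboring ages in that order overlapped. No contractile member passed edgeR's test between 14 weeks and 1 year or between 14 weeks and 1.5 years in fibroblasts, adjusted or at an unadjusted p under 0.05, where 1.78% and 2.72% of all genes passed.

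**Figure D1:**
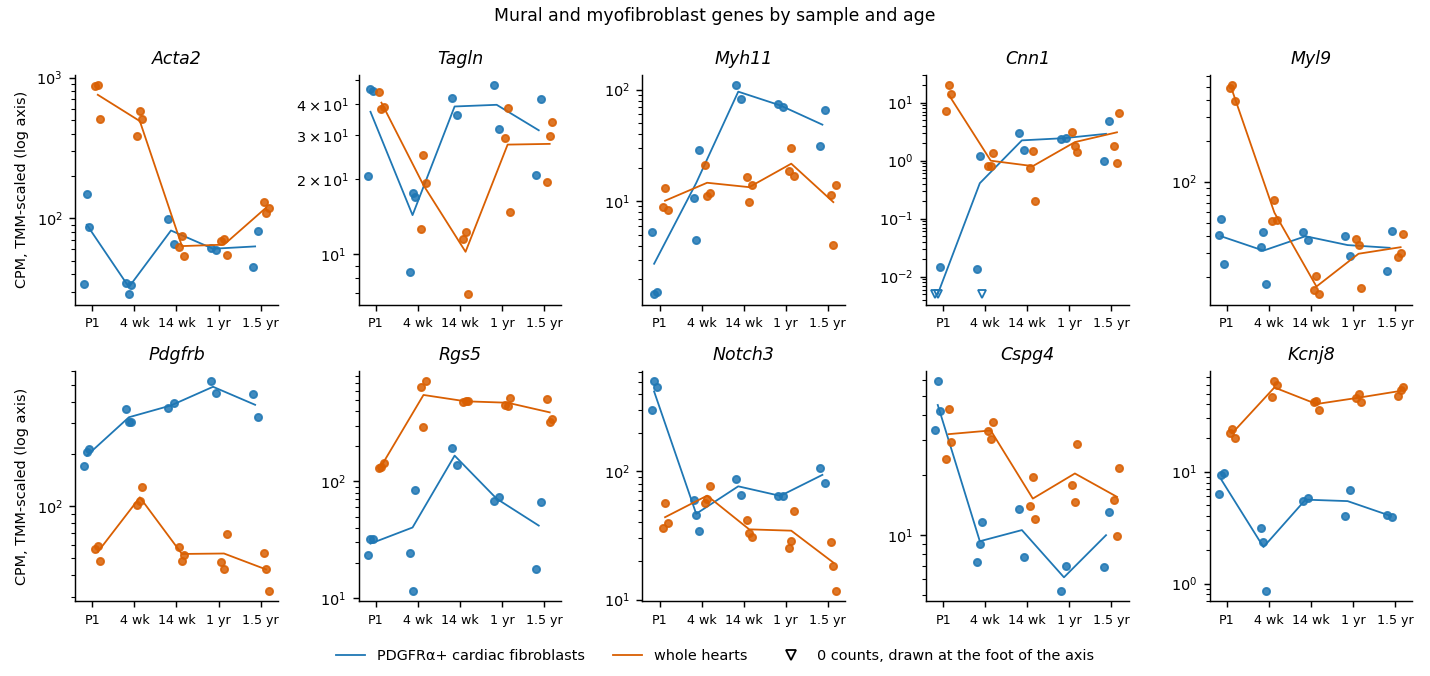
Level of each of the 10 genes in every library, in CPM on a log axis, by age, with fibroblasts in blue and whole hearts in orange; each point is 1 library, lines join the group means, and open triangles are libraries with 0 counts. Notch3 and Cspg4 drop in fibroblasts after postnatal day 1, Myh11 climbs in fibroblasts, and Acta2 and Myl9 drop in whole hearts.

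In whole hearts 4 of the 5 contractile genes, all but Myh11, fell between postnatal day 1 and 4 weeks, a step in which 18.2% of all genes tested passed. Acta2 was at 871, 886 and 508 CPM at postnatal day 1, 383, 578 and 512 CPM at 4 weeks, 62.1, 74.6 and 53.5 CPM at 14 weeks, 68.8, 71.1 and 54.7 CPM at 1 year, and 130, 108 and 118 CPM at 1.5 years. The neonatal and 4-week hearts overlapped, and every later heart lay below both. The first step was small, a log2 fold change of -0.62 ± 0.21 (SE, edgeR adjusted p = 0.0488) that was lost without 4-week replicate 1 or 3 or neonatal replicate 1 or 2 (edgeR adjusted p = 0.0961 to 0.2), in a fit of only these 2 ages (0.111) and with offsets for exon length (0.092). From 4 to 14 weeks Acta2 fell 7.74-fold, a log2 fold change of -2.95 ± 0.22 (SE, edgeR adjusted p = 7.77e-06). Acta2 shares much of its sequence with the other actins, and the heart expresses cardiac actin at a high level, so the split of reads between them is uncertain.

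Myl9 fell in both steps. It was at 489, 514 and 393 CPM in neonatal hearts, 51.6, 73.8 and 51.9 CPM at 4 weeks, 15.8, 20.0 and 14.9 CPM at 14 weeks, 37.8, 34.1 and 16.5 CPM at 1 year, and 27.8, 29.98 and 41.0 CPM at 1.5 years. The neonatal, 4-week and 14-week hearts formed 3 separate ranges. The log2 fold change was -2.98 ± 0.27 (SE, edgeR adjusted p = 9.24e-07) from postnatal day 1 to 4 weeks and -1.81 ± 0.26 (SE, edgeR adjusted p = 0.00188) from 4 to 14 weeks. Cnn1 was at 7.02, 20.0 and 13.9 CPM in neonatal hearts and at 0.813, 0.800 and 1.37 CPM at 4 weeks, a 13.7-fold fall (log2 fold change -3.78 ± 0.81, SE, edgeR adjusted p = 0.00334). Later hearts ranged from 0.197 to 6.52 CPM of Cnn1. Tagln was at 44.7, 38.2 and 38.8 CPM in neonatal hearts and at 12.6, 24.9 and 19.2 CPM at 4 weeks, which did not overlap. It fell by 1.10 ± 0.33 on the log2 scale (SE, edgeR adjusted p = 0.0294), but the call was lost when any 1 of 5 of the 6 libraries was left out (edgeR adjusted p = 0.0612 to 0.118). Myh11 showed no such fall: it ranged from 4.05 to 29.8 CPM over the 15 hearts, and across all 5 ages it did not pass the test (edgeR adjusted p = 0.125). The 1-year hearts lay above those of 14 weeks and of 1.5 years without overlap, and the first 3 ages overlapped one another.

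At 1.5 years 3 contractile genes were above their 14-week level in the heart, where 12.8% of all genes tested passed the test in either direction and 4.91% were higher. Acta2 rose by 0.91 ± 0.21 on the log2 scale (SE, edgeR adjusted p = 0.0102), from 63.4 ± 10.6 to 119 ± 11.2 CPM (SD, n = 3). Tagln was at 11.4, 12.3 and 6.91 CPM at 14 weeks and 19.5, 29.8 and 33.8 CPM at 1.5 years, and rose by 1.44 ± 0.34 (SE, edgeR adjusted p = 0.011). Myl9 rose by 0.96 ± 0.26 (SE, edgeR adjusted p = 0.0221). In each of the 3 genes the 14-week and 1.5-year hearts did not overlap, as in 31.7% of all genes. Acta2 and Tagln lost the call without 14-week replicate 3 (edgeR adjusted p = 0.0613 and 0.0635), and Myl9 lost it without 14-week replicate 1 or 3 or 1.5-year replicate 3 (edgeR adjusted p = 0.0849 to 0.102). Marker sums of other cells and the mitochondrial share moved with the same comparison: from 14 weeks to 1.5 years the macrophage and leukocyte sum was 265 to 294 and then 443 to 584 CPM, the fibroblast sum 2142 to 2656 and then 2930 to 3365 CPM, the endothelial sum 806 to 843 and then 703 to 764 CPM, and the mitochondrial share 27.7% to 34.5% and then 18.5% to 26.5%, in each case without overlap. Their part in the rise of these 3 genes was not tested. Transcript length moved with it as well: over the 17419 genes with a known length, the median log2 fold change was 0.40 in the shortest of 3 equal groups (at most 2683 exonic bases) and -0.41 in the longest (at least 5266 bases). The exonic lengths of Myl9, Tagln and Acta2 are 1162, 1988 and 2196 bases. With offsets for exon length, chosen after seeing the data, Tagln kept its call at 1.26 (edgeR adjusted p = 0.0312), while Acta2 was at 0.76 (edgeR adjusted p = 0.0528) and Myl9 at 0.69 (edgeR adjusted p = 0.122). Between 14 weeks and 1 year no member passed the test in hearts, where 0.972% of all genes did; Tagln came nearest, at a log2 fold change of 1.43 ± 0.34 (SE, edgeR adjusted p = 0.0577), and it and Myl9 were the 2 members with an unadjusted p under 0.05. Without 1-year replicate 3 both passed, Tagln at 1.73 (edgeR adjusted p = 0.0335) and Myl9 at 1.09 (0.0445).

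Among the receptors, signaling genes and channel of mural cells, Notch3, Cspg4 and Kcnj8 fell and Pdgfrb rose in fibroblasts between postnatal day 1 and 4 weeks. Notch3 encodes the Notch receptor of mural cells. In fibroblasts it was at 300, 504 and 457 CPM at postnatal day 1, 59.9, 45.9 and 34.3 CPM at 4 weeks, 87.7 and 65.4 CPM at 14 weeks, 64.4 and 64.5 CPM at 1 year, and 107 and 80.9 CPM at 1.5 years. The lowest neonatal library was above every later library. Notch3 fell 9.004-fold to 4 weeks, a log2 fold change of -3.17 ± 0.25 (SE, edgeR adjusted p = 2.68e-06), and was still 4.47-fold below its neonatal level at 1.5 years (log2 fold change -2.16 ± 0.28, SE, edgeR adjusted p = 0.000133). An antisense gene, Gm17276, overlaps 6.0% of its exonic bases. Cspg4, the proteoglycan NG2 of pericyte surfaces, also fell over this step. It was at 33.8, 58.9 and 41.9 CPM in neonatal fibroblasts, 7.31, 8.97 and 11.6 CPM at 4 weeks, and between 5.25 and 13.4 CPM at all later ages. It fell by 2.27 ± 0.34 on the log2 scale to 4 weeks (SE, edgeR adjusted p = 0.000575) with no overlap between the groups.

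Pdgfrb, the receptor for platelet-derived growth factor B, rose in fibroblasts over the same interval. It was at 171, 204 and 213 CPM at postnatal day 1, 365, 308 and 304 CPM at 4 weeks, 367 and 396 CPM at 14 weeks, 525 and 452 CPM at 1 year, and 443 and 326 CPM at 1.5 years. Every library of a later age was above the 3 neonatal ones. The rise to 4 weeks was 0.73 ± 0.15 on the log2 scale (SE, edgeR adjusted p = 0.00391), and that to 1.5 years was 0.97 ± 0.16 (SE, edgeR adjusted p = 0.000909). These calls of Notch3, Cspg4 and Pdgfrb at 4 weeks were kept when any 1 library was left out. The count ratio of Notch3 to Pdgfrb within a fibroblast library was 1.76 to 2.47 at postnatal day 1 and 0.113 to 0.248 at all later ages, with no overlap.

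Kcnj8, the pore subunit of the ATP-sensitive potassium channel of mural cells, was low in fibroblasts. It was at 6.31, 9.29 and 9.78 CPM at postnatal day 1 and at 3.14, 2.35 and 0.866 CPM at 4 weeks, and fell by 2.00 ± 0.59 on the log2 scale (SE, edgeR adjusted p = 0.0358). The groups did not overlap, but the call was lost without 4-week replicate 2 or 3 or neonatal replicate 2 or 3 (edgeR adjusted p = 0.0703 to 0.0883) and in a fit of only these 2 ages (0.0883). Every later fibroblast library lay above those of 4 weeks, with Kcnj8 at 5.47 and 5.78 CPM at 14 weeks, 4.02 and 6.89 CPM at 1 year, and 4.13 and 3.97 CPM at 1.5 years. Rgs5, a regulator of G protein signaling that is among the most abundant pericyte transcripts, did not pass the test in any age step of the fibroblasts with all libraries in the fit. It was at 23.4, 32.1 and 32.4 CPM at postnatal day 1, 24.3, 11.6 and 84.95 CPM at 4 weeks, 193 and 139 CPM at 14 weeks, 68.0 and 74.1 CPM at 1 year, and 17.6 and 66.0 CPM at 1.5 years. The 4-week libraries spread widely and held the neonatal range within their own. From 4 to 14 weeks Rgs5 was at a log2 fold change of 2.05 (edgeR adjusted p = 0.119), and without 4-week replicate 3 it passed, at 3.21 (edgeR adjusted p = 0.00758). The high value at 4 weeks was in replicate 3, the library with the highest endothelial marker sum of that age, and the low value at 1.5 years was in replicate 4, the library with the lowest; the part of other cells in these values was not tested. From 14 weeks to 1.5 years Rgs5 differed by -1.99 ± 0.74 on the log2 scale (SE, edgeR adjusted p = 0.224), the only member with an unadjusted p under 0.05 in that comparison.

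In whole hearts Rgs5 and Kcnj8 rose after birth and stayed high. Rgs5 was at 130, 133 and 145 CPM in neonatal hearts, 642, 290 and 719 CPM at 4 weeks, 480, 487 and 490 CPM at 14 weeks, 453, 442 and 521 CPM at 1 year, and 506, 324 and 342 CPM at 1.5 years. Every later heart was above the neonatal ones, and the later ages overlapped one another. The log2 fold change to 4 weeks was 2.02 ± 0.26 (SE, edgeR adjusted p = 2.63e-05). Kcnj8 was at 22.2, 24.3 and 19.9 CPM in neonatal hearts, 46.4, 64.2 and 59.3 CPM at 4 weeks, 42.1, 43.3 and 35.4 CPM at 14 weeks, 45.6, 49.7 and 42.3 CPM at 1 year, and 47.6, 53.5 and 57.2 CPM at 1.5 years. It rose by 1.35 ± 0.17 on the log2 scale to 4 weeks (SE, edgeR adjusted p = 1.88e-05), again with every later heart above the neonatal range. Markers of other cells rose over the same step without overlap: the endothelial sum was 622 to 880 CPM in neonatal hearts and 1140 to 1369 CPM at 4 weeks, the macrophage and leukocyte sum 52.1 to 67.6 and 340 to 413 CPM, and the cardiomyocyte sum 40587 to 49267 and 77372 to 98997 CPM. Their part in the rise of Rgs5 and Kcnj8 was not tested.

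Pdgfrb rose and fell back in hearts. It was at 56.5, 58.8 and 48.0 CPM at postnatal day 1, 102, 107 and 129 CPM at 4 weeks, and 58.5, 48.4 and 52.1 CPM at 14 weeks. The 4-week hearts stood above both neighbors, with a log2 fold change of 1.05 ± 0.20 up to 4 weeks (SE, edgeR adjusted p = 0.00145) and of -1.09 ± 0.20 from there to 14 weeks (SE, edgeR adjusted p = 0.013). The rise was lost when counts were scaled to library size only (log2 fold change 0.54, edgeR adjusted p = 0.0997). The fall was lost without 14-week replicate 2 or 3 or 4-week replicate 3 (edgeR adjusted p = 0.0709 to 0.0845). Notch3 was at 35.9, 56.5 and 39.4 CPM in neonatal hearts and 56.5, 60.7 and 76.97 CPM at 4 weeks. Later values of Notch3 were 41.9, 33.4 and 30.7 CPM at 14 weeks, 25.2, 28.7 and 49.5 CPM at 1 year, and 28.2, 18.4 and 11.8 CPM at 1.5 years. It did not pass the test between the first 2 ages (edgeR adjusted p = 0.221) but was 2.26-fold lower at 1.5 years than at postnatal day 1 (log2 fold change -1.18 ± 0.30, SE, edgeR adjusted p = 0.00717), a call that without neonatal replicate 2 stood at edgeR adjusted p = 0.0503 and, with offsets for exon length, at a log2 fold change of -0.65 (edgeR adjusted p = 0.062). Cspg4 was at 23.9, 42.9 and 29.3 CPM in neonatal hearts and 33.3, 30.1 and 36.9 CPM at 4 weeks. It was then at 14.0, 19.6 and 12.1 CPM at 14 weeks, 17.8, 14.7 and 28.5 CPM at 1 year, and 14.9, 9.90 and 21.7 CPM at 1.5 years. Every 14-week heart lay below every heart of the first 2 ages, and the later ages overlapped the 14-week range. The heart of 1-year replicate 3 lay within the neonatal range. Cspg4 did not pass the test from 4 to 14 weeks. Its first step was 0.06 ± 0.31 on the log2 scale (SE, edgeR adjusted p = 0.931), and by 1.5 years it had fallen by 1.05 ± 0.31 (SE, edgeR adjusted p = 0.0176), a call lost without neonatal replicate 2 or 1.5-year replicate 2 (edgeR adjusted p = 0.131 and 0.0805) and in a fit of only these 2 ages (0.0577). Cspg4 has the longest exonic sequence of the 10 genes, 11931 bases, and with offsets for exon length its log2 fold change was -0.12 (edgeR adjusted p = 0.841).

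**Figure D2:**
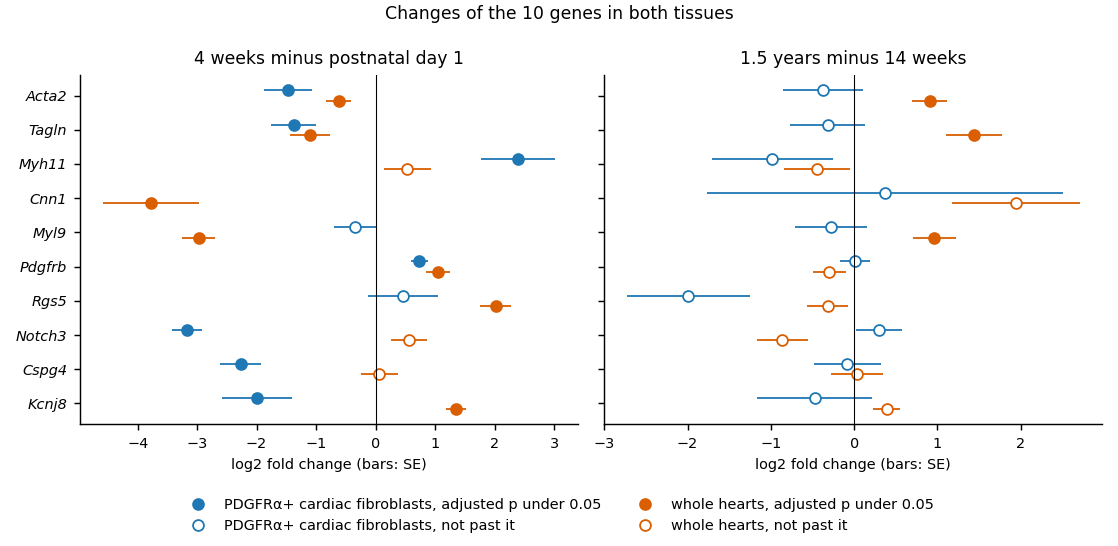
Log2 fold change with its standard error for each gene from postnatal day 1 to 4 weeks (left) and from 14 weeks to 1.5 years (right), in fibroblasts (blue) and in whole hearts (orange); filled points passed the adjusted threshold of 0.05, and Cnn1 in fibroblasts at 4 weeks is left out because its neonatal libraries were at or under 3 counts. On the left Notch3 in fibroblasts stands at -3.17 and Myl9 in hearts at -2.98, and on the right the filled points are those of Acta2, Tagln and Myl9 in hearts.

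Counted over the 10 genes, 7 passed the test in fibroblasts between postnatal day 1 and 4 weeks, a step in which 15.5% of the 18759 genes tested passed. The 7 were 2 higher and 5 lower, against 9.28% and 6.2% of all genes in those directions. In hearts 7 passed as well, where 18.2% of 17995 genes did, and the 3 higher and 4 lower stand against 12.1% and 6.1%. From 4 to 14 weeks 1 passed in fibroblasts, against 3.87% of all genes (1.79% higher), and 3 in hearts, all lower, against 1.61% (0.85% lower). From 14 weeks to 1 year and to 1.5 years none passed in fibroblasts by edgeR's test, where 1.78% and 2.72% of all genes did, and at an unadjusted p under 0.05 there were 0 and 1. Between postnatal day 1 and 1.5 years, 5 passed in fibroblasts, where 16.3% of all genes did, with 3 higher against 9.86% and 2 lower against 6.46%. In hearts 7 passed, where 31.8% of all genes did, with 2 higher against 15.6% and 5 lower against 16.3%. Across all 5 ages Myh11, Pdgfrb, Notch3 and Cspg4 passed in fibroblasts, where 19.9% of all genes did, and all but Myh11 passed in hearts, where 34.3% did. The adjusted p over 5 ages in fibroblasts was 0.12 for Acta2 and 0.0586 for Rgs5 by edgeR's quasi-likelihood test.

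The changes up to 4 weeks were then compared between the tissues in 1 fit over all 27 libraries, in which 7.14% of 20650 genes differed; 5 of the 10 members did. Notch3 fell in fibroblasts relative to hearts by 3.73 ± 0.43 on the log2 scale (SE, edgeR adjusted p = 5.1e-06), Kcnj8 by 3.34 ± 0.43 (SE, edgeR adjusted p = 2.24e-05) and Cspg4 by 2.35 ± 0.48 (SE, edgeR adjusted p = 0.0027). For Myl9 the change in fibroblasts was above that in hearts by 2.63 ± 0.48 (SE, edgeR adjusted p = 0.000909). These 4 differences passed under every alternative run. For Cnn1 the fitted difference was 9.69 (edgeR adjusted p = 0.00532), a size that depends on the prior count because neonatal fibroblasts were at or near 0, and it did not pass without 4-week fibroblast replicate 2 (edgeR adjusted p = 0.31), which held all but 1 of the counts of that group. Acta2, Tagln and Pdgfrb moved the same way in both tissues, with differences of -0.85 ± 0.47, -0.29 ± 0.54 and -0.32 ± 0.27 (SE) that did not pass, although that of Acta2 did without neonatal fibroblast replicate 1 (-1.25, edgeR adjusted p = 0.039). Rgs5 differed by -1.58 ± 0.66 (SE, edgeR adjusted p = 0.16), and without 4-week fibroblast replicate 3 by -2.71 (edgeR adjusted p = 0.00261), while with offsets for exon length it differed by -1.98 (edgeR adjusted p = 0.0473).

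**Figure D3:**
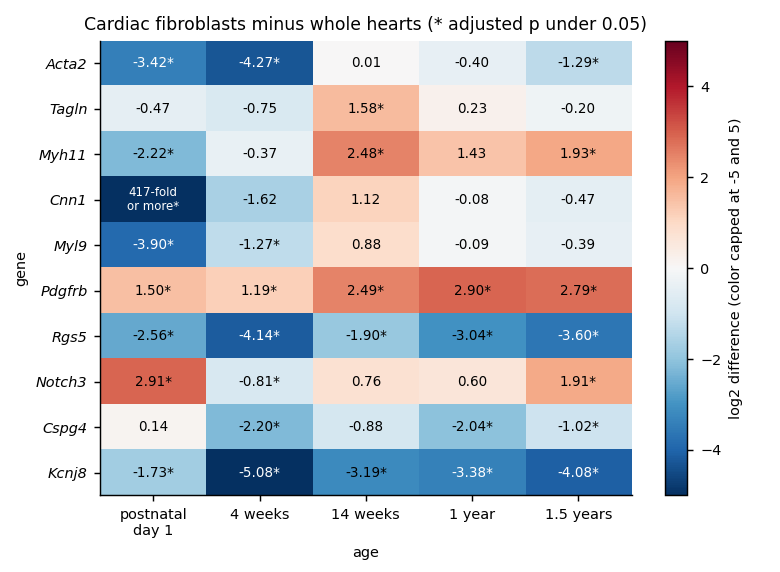
Difference between fibroblasts and whole hearts at each age for each gene, as log2 of fibroblasts over hearts from the joint fit of 27 libraries; marked cells passed the adjusted threshold of 0.05, and Cnn1 at postnatal day 1 is given as a limit. Pdgfrb is above the hearts and Rgs5 and Kcnj8 below them at all 5 ages.

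Set against whole hearts of the same age, Pdgfrb was higher in fibroblasts and Rgs5 and Kcnj8 were lower at every age. With both tissues scaled together, the mean of Pdgfrb was 172 ± 19.9 CPM in fibroblasts and 60.7 ± 6.64 CPM in hearts at postnatal day 1 (SD, n = 3), a difference of 2.83-fold, and it was 7.44-fold at 1 year (log2 2.90 ± 0.22, SE, edgeR adjusted p = 1.29e-10). Rgs5 was 5.90-fold lower in fibroblasts at postnatal day 1 and 17.6-fold lower at 4 weeks (log2 fold change -4.14 ± 0.53, SE, edgeR adjusted p = 7.78e-07). Its smallest difference was at 14 weeks, at -1.90 ± 0.56 (SE, edgeR adjusted p = 0.00919), a call lost without 14-week fibroblast replicate 6 (edgeR adjusted p = 0.104) and with library size scaling (0.0837). Kcnj8 was 3.33-fold lower at postnatal day 1 and 33.8-fold lower at 4 weeks (log2 fold change -5.08 ± 0.35, SE, edgeR adjusted p = 3.41e-11).

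Notch3 changed sides with age. It was 7.54-fold higher in fibroblasts than in hearts at postnatal day 1 (log2 2.91 ± 0.32, SE, edgeR adjusted p = 8.17e-08), 1.76-fold lower at 4 weeks (log2 fold change -0.81 ± 0.30, SE, edgeR adjusted p = 0.0335) and 3.75-fold higher at 1.5 years (log2 1.91 ± 0.33, SE, edgeR adjusted p = 3.87e-05). The 4-week difference did not pass when counts were scaled to library size only (edgeR adjusted p = 0.258) or without a filter (0.0535), nor without 4-week replicate 2 or 3 of either tissue (edgeR adjusted p = 0.0781 to 0.154). Acta2 was 10.7-fold lower in fibroblasts at postnatal day 1 and 19.3-fold lower at 4 weeks, while at 14 weeks the means were 70.1 ± 19.0 CPM (SD, n = 2) in fibroblasts and 69.6 ± 11.3 CPM (SD, n = 3) in hearts. Myl9 was 14.96-fold lower in fibroblasts at postnatal day 1 and did not pass from 14 weeks onward. Offsets for exon length ended its call at 4 weeks (log2 fold change -0.55, edgeR adjusted p = 0.278). At 14 weeks, where its difference was 0.88 (edgeR adjusted p = 0.0691), it was called higher in fibroblasts with library size scaling (log2 1.55, edgeR adjusted p = 0.000855), without a filter (0.95, 0.0496), in a fit of only those groups (0.77, 0.0079) and with offsets for exon length (1.40, 0.0118). Cnn1 was at least 417-fold higher in neonatal hearts than in neonatal fibroblasts. Myh11 was 4.65-fold lower in fibroblasts at postnatal day 1 and 5.58-fold higher at 14 weeks (log2 2.48 ± 0.60, SE, edgeR adjusted p = 0.00191). In all, 8, 7, 5, 4 and 7 of the 10 genes passed at the 5 ages in order, where 32.3%, 36.1%, 34.8%, 32.4% and 38.9% of all genes did. At 1.5 years the call of Myh11 was lost without fibroblast replicate 5 (edgeR adjusted p = 0.179), heart replicate 2 (0.0529) and with offsets for exon length (0.133). That of Acta2 was lost without fibroblast replicate 4 (edgeR adjusted p = 0.155), with library size scaling (0.0521) and with offsets for exon length (0.0715). The call of Cspg4 at that age was lost without fibroblast replicate 4 or heart replicate 1 or 3 (edgeR adjusted p = 0.0636 to 0.353), with library size scaling (0.186), without a filter (0.0578) and in a fit of only those groups (0.142).

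Levels of different genes were compared per length, as CPM per kilobase of exonic sequence. In fibroblasts the highest of the 10 was Notch3 at postnatal day 1, with a level of 52.0 ± 13.2 (SD, n = 3), followed by Acta2 at 40.9 ± 26.0 and Pdgfrb at 35.8 ± 4.07, which overlapped. From 4 weeks onward the highest was Pdgfrb, at 59.5 ± 6.22 (SD, n = 3) at 4 weeks and 69.6 ± 3.70 (SD, n = 2) at 14 weeks. In hearts the highest mean at postnatal day 1 was that of Myl9, at 401 ± 54.9, which overlapped Acta2 at 344 ± 97.6 (SD, n = 3). The highest was Acta2 at 4 weeks, at 223 ± 45.0, and Rgs5 at 14 weeks, at 107 ± 1.14 (SD, n = 3). Rgs5 was also the highest at 1 year and at 1.5 years, at 104 ± 9.34 and 85.9 ± 22.0 CPM per kilobase.

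Ratios within a library set these courses side by side without scaling between libraries, though the genes of a ratio can differ in length. Myh11 and Acta2 have 7599 and 2196 exonic bases. The part of transcript length in the heart ratios at 1.5 years was not tested. The ratio of Myh11 to Acta2 counts in fibroblasts was 0.00997 to 0.155 at postnatal day 1, 0.156 to 0.851 at 4 weeks, 1.12 to 1.25 at 14 weeks and 0.687 to 0.818 at 1.5 years. In hearts it was 0.0102 to 0.0164 at postnatal day 1, 0.0194 to 0.0547 at 4 weeks and 0.132 to 0.265 at 14 weeks. It was then 0.272 to 0.419 at 1 year and 0.0375 to 0.119 at 1.5 years. The ratio of Rgs5 to Pdgfrb in hearts was 2.26 to 3.02 at postnatal day 1, 8.21 to 10.1 at 14 weeks and 7.48 to 10.5 at 1.5 years. In fibroblasts the ratio of Rgs5 to Pdgfrb was at most 0.527. The ratio of Kcnj8 to Abcc9, the regulatory subunit of the same channel, was 0.0439 to 0.102 in fibroblasts of all ages, while in hearts it was 0.118 to 0.162 at postnatal day 1 and 0.311 to 0.628 at 1.5 years.

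**Figure D4:**
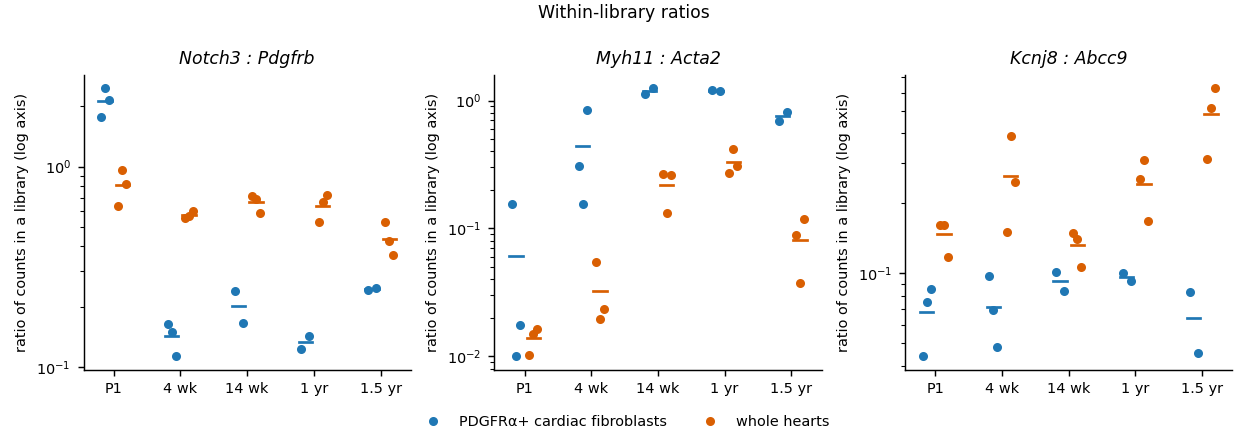
Ratios of counts within each library by age, on a log axis, for fibroblasts (blue) and whole hearts (orange); each point is 1 library and each short bar a group mean. The Notch3 to Pdgfrb ratio in fibroblasts is above 1 at postnatal day 1 and below 0.25 at every later age.

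Direct partners of the members were read next. Abcc9, which heart muscle also expresses, fell with Kcnj8 in fibroblasts, from 127 ± 15.2 to 28.0 ± 8.77 CPM (SD, n = 3; log2 fold change -2.18 ± 0.30, SE, edgeR adjusted p = 0.000266). In hearts Abcc9 went from 307 ± 25.5 CPM at 14 weeks to 116 ± 32.7 CPM at 1.5 years (SD, n = 3; log2 fold change -1.41 ± 0.23, SE, edgeR adjusted p = 0.00159), a step in which Kcnj8 had a log2 fold change of 0.39 ± 0.16 (SE, edgeR adjusted p = 0.128). Pdgfb, the ligand of Pdgfrb, rose in hearts from 24.1 ± 5.12 to 48.3 ± 4.48 CPM over the step to 4 weeks (SD, n = 3; log2 1.00 ± 0.22, SE, edgeR adjusted p = 0.00342), the step in which Pdgfrb rose. Jag1, a Notch ligand, was at 47.6 ± 12.7 CPM in neonatal fibroblasts and 60.5 ± 15.1 CPM at 4 weeks (SD, n = 3) and passed no age step. Heyl, a Notch target, rose in fibroblasts from 116 ± 16.6 to 222 ± 86.5 CPM (SD, n = 3; edgeR adjusted p = 0.0161) over the step in which Notch3 fell, and rose in hearts from 28.2 ± 8.70 to 50.3 ± 7.19 CPM (SD, n = 3; edgeR adjusted p = 0.0222).

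Myocd, the coactivator of serum response factor in smooth and heart muscle, had group means of at most 3.21 CPM in fibroblasts and fell in hearts from 63.8 ± 13.5 CPM at 14 weeks to 24.1 ± 8.72 CPM at 1.5 years (SD, n = 3; edgeR adjusted p = 0.00393). Srf itself rose in fibroblasts from 59.5 ± 5.58 to 116 ± 6.74 CPM (SD, n = 2; edgeR adjusted p = 0.0209) between those ages. In hearts longer transcripts tended lower over this interval, as given above. The part of transcript length in the falls of Abcc9 and Myocd was not tested. Mylk, the kinase of Myl9, passed no age step in either tissue. Postn, the myofibroblast gene for periostin, fell to 4 weeks from 8188 ± 1912 to 1042 ± 136 CPM in fibroblasts and from 511 ± 113 to 76.1 ± 51.0 CPM in hearts (SD, n = 3), log2 fold changes of -2.97 and -2.75. Acta2 in fibroblasts went from 89.9 ± 57.1 to 32.4 ± 3.12 CPM over the same interval (SD, n = 3).

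Related lists showed mixed directions over the step to 4 weeks in fibroblasts, where the median over all genes tested was 0.00 on the log2 scale and 9.28% of all genes rose and 6.2% fell. Of 20 other smooth muscle contractile genes, 3 rose (Synm by 2.18, Mustn1 by 1.52 on the log2 scale) and 6 fell (Itga8 by 2.35, Des by 1.39), with a median of -0.34. Of 18 other pericyte genes, 5 rose (Cd248 by 2.47, Steap4 by 2.26) and 3 fell (Abcc9, and Tbx18 by 1.38), with a median of 0.37. Cd248, the surface protein endosialin, is also made by fibroblasts. Of 15 myofibroblast and matrifibrocyte genes, 7 rose (the matrix genes Cilp by 5.29 and Col8a1 by 4.52) and 6 fell (Cthrc1 by 3.59 and Tnc by 3.05), so that genes of this list moved strongly both ways. Of 12 regulators of smooth muscle transcription, 1 rose (Klf4, a repressor of contractile genes, by 2.45) and 4 fell, among them Fhl2 by 1.73 and the MCAT-binding factor Tead1 by 0.86. Of 12 Notch ligands, receptors and targets, 3 rose and none fell by edgeR's test. The risers were Heyl and 2 genes of endothelial cells, Dll4 by 3.94 and Notch4 by 1.79, beside endothelial marker sums of 489 to 747 CPM at postnatal day 1 and 648 to 2186 CPM at 4 weeks, whose part was not tested. Of 5 PDGF ligands and receptors, Pdgfra, the sorted antigen, rose by 0.48 (edgeR adjusted p = 0.0112).

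In hearts over the same step, where the median of all genes was -0.09 and 12.1% of all genes rose and 6.1% fell, 6 of the 20 smooth muscle genes rose (Synm by 1.77, Tpm1, a gene that heart muscle expresses, by 1.65) and 2 fell (Tpm2 by 1.45, Cnn3 by 0.82). Of the 18 pericyte genes 6 rose, with Vtn at 4.85 and Rgs4 at 2.67 on the log2 scale, and 2 fell, Tbx18 by 2.43 and Foxc1 by 1.51, with a median of 0.96. Of the 15 myofibroblast genes 2 rose, Cilp by 3.44 and Col8a1 by 3.27, and 5 fell, led by Postn and by Tnc at 2.52. Of the regulators 3 rose and 1 fell, and of the Notch genes 4 rose (Dll4 by 1.29, Jag2 by 1.19) and 1 fell (Hey2 by 3.82). Of the 5 PDGF genes Pdgfb rose and Pdgfa fell by 0.83.

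Between 14 weeks and 1.5 years in fibroblasts the median of all genes was 0.00, and 1.91% of all genes rose and 0.816% fell. Of the smooth muscle genes 1 fell (Ntrk3 by 1.16), of the pericyte genes 1 rose (Foxc1 by 1.78), of the myofibroblast genes 1 fell (Col8a1 by 0.90) and of the 12 regulators 3 rose, Srf and Gata6 beside Klf4, which went from a mean of 1710 to 4561 CPM (log2 fold change 1.42, edgeR adjusted p = 0.00677). The summed level of the regulators was 2162 to 2314 CPM at 14 weeks and 4940 to 5471 CPM at 1.5 years, of which Klf4 made up most. In hearts, with a median of -0.02 and with 4.91% of all genes higher and 7.86% lower, 3 smooth muscle genes rose (Tpm2 by 1.20, Cnn2 by 0.68) and 2 fell (Vcl by 0.89, Synpo2 by 0.62), and of the 18 pericyte genes Cd248 rose by 1.25 and Abcc9 fell. Of the regulators 1 rose (Fhl2 by 0.66) and 5 fell, led by Myocd and by Tead1 at 1.40. Of the myofibroblast genes 2 rose, Thbs4 by 1.50 and Meox1 by 1.04, and of the Notch genes Hes1 rose by 0.74 while Jag2 and Notch4 fell by 1.12 and 0.88. Of the 15 myofibroblast genes 11, 11, 11, 12 and 10 were higher in fibroblasts than in hearts at the 5 ages in order, where 13.6%, 17.5%, 17.1%, 16.7% and 21% of all genes were.

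The genes whose log2 CPM was most like that of a member were found by Pearson's r over the 12 fibroblast or the 15 heart libraries, among genes with a mean of at least 5 CPM; the libraries share age groups, and these values are descriptions. In fibroblasts the closest to Notch3 were Csrp1, Gli3 and Igf2bp1 (r = 0.966, 0.962 and 0.961), and the closest to Pdgfrb were Itgb5, Dram1 and Ltbp2 (r = 0.975, 0.968 and 0.967). Cspg4 was closest to Tmem2 (r = 0.972) and then to Mybpc3 and Hspb7 (r = 0.969 and 0.968), genes of heart muscle. The cardiomyocyte markers of neonatal fibroblasts summed to 1.38% of their level in neonatal hearts with both tissues scaled together. On that scale Cspg4 was at 39.4 ± 11.3 CPM in those fibroblasts and 35.7 ± 10.8 CPM in those hearts (SD, n = 3). The part of heart muscle RNA in the level of Cspg4 was not tested. Myh11 was closest to Cers4, Cr1l and Ifi205 (r = 0.971, 0.965 and 0.96), Acta2 to Mamld1 (r = 0.892), Tagln to Trpm6 (r = 0.933), Cnn1 to Raver2 (r = 0.95), Myl9 to Dld (r = 0.866), Rgs5 to Swap70 (r = 0.873) and Kcnj8 to Pappa (r = 0.913).

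In hearts Acta2 was closest to 3 collagen genes, Col5a1, Col1a1 and Col1a2 (r = 0.964, 0.955 and 0.952), and Myl9 to Igf2 (r = 0.984). Cnn1 was closest to Tpm2 (r = 0.927), Pdgfrb to Arhgap27 and Hspg2 (r = 0.942 and 0.925), Rgs5 to Col8a1 (r = 0.96), Notch3 to Pdzd2 (r = 0.948), Cspg4 to Stk38 (r = 0.912), Kcnj8 to Tspan13 (r = 0.965), Tagln to Bcl2l12 (r = 0.904) and Myh11 to Lfng (r = 0.788). Among the members themselves, Notch3 and Pdgfrb had r = 0.873 over the 15 hearts and 0.9 after age means were removed. Over the 12 fibroblast libraries Notch3 and Pdgfrb had r = -0.73, and 0.691 after age means were removed. Acta2 and Tagln in fibroblasts had r = 0.831, and 0.676 within ages.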

How the data were processed

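RNA-Seq reads of 12 fibroblast and 15 whole heart samples were mapped by the authors with STAR 2.5.3a to mm10, and the deposited tables hold raw counts per gene from its gene counting; the annotation and the strand setting are not given in the sources used here. The deposited counts were tested with edgeR 4.0.16 (R 4.3.3) by the quasi-likelihood F test after TMM scaling and filterByExpr, with 1 fit per tissue over all its ages and 1 joint fit of 27 libraries for comparisons between tissues. The adjusted p is that of Benjamini and Hochberg over all genes tested (18759, 17995 and 20650), with a threshold of 0.05. CPM are counts scaled to the TMM-corrected library size, and a floor of 3 counts per library set lower limits, which cover counting error only. Exonic lengths came from GENCODE M21 (GRCm38) and sequences from RefSeq. Alternatives were DESeq2 1.42.0, library size scaling, other filters, a replicate block, fits of only the groups compared, each library left out in turn and, chosen after seeing the data, exon length offsets. All 10 members were named, with their direct partners, the 2 largest rises and falls of each related list among genes past the threshold with a mean of at least 1 CPM, and the 3 genes most like each member (1 of them for most members in the text). The members and lists were chosen with earlier results of these data known. The tests were checked on simulated counts with a fixed spread for all genes, set below the common spread estimated from these data. That check does not show how the tests behave at the spread of these data.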

Additional observations from a re-analysis of the deposited data

Results flagged for a closer look

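Over the step from postnatal day 1 to 4 weeks, 5 of the 10 genes changed differently in cardiac fibroblasts and in whole hearts by the interaction term of the joint fit. The log2 change in fibroblasts minus that in hearts was -3.73 for Notch3, -3.34 for Kcnj8 and -2.35 for Cspg4, and 2.63 for Myl9. For Cnn1 it was 9.69, a fitted size with no firm scale because the gene was at or near 0 in neonatal fibroblasts. Notch3 fell from 421 ± 107 to 46.7 ± 12.8 CPM in fibroblasts and was at 43.9 ± 11.04 and 64.7 ± 10.8 CPM in hearts (SD, n = 3). Kcnj8 fell in the sorted cells and rose in the hearts, from 8.46 ± 1.88 to 2.12 ± 1.15 CPM and from 22.2 ± 2.19 to 56.6 ± 9.20 CPM (SD, n = 3). Myl9 was at 39.5 ± 14.3 and 31.1 ± 12.5 CPM in fibroblasts while it fell in hearts from 465 ± 63.8 to 59.1 ± 12.7 CPM (SD, n = 3).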

How the results depend on the processing

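Of 2122 single-gene comparisons under other settings, none changed direction where it was called, 87 lost the threshold and 45 gained it. The 2122 include comparisons not called in the main fit, which could not lose it, so 87 of 2122 is not the rate at which calls were lost. The number of members past the test from 4 to 14 weeks in fibroblasts was 1 and became 2 without a filter, 2 with at least 10 counts in every sample and 3 with DESeq2. From 14 weeks to 1 year it went from 0 to 1 (Rgs5) in fibroblasts with only the groups compared, and in hearts from 0 to 1 in that fit, 1 with at least 10 counts and 2 with DESeq2. From 4 to 14 weeks in hearts library size scaling gave 5 in place of 3. From 14 weeks to 1.5 years in hearts the count of 3 became 1 at 2-fold or more, 5 with at least 10 counts, 5 with DESeq2 and 1 with exon length offsets. Between tissues at 14 weeks, a fit of only those groups gave 8 in place of 5. With single libraries left out, the counts in fibroblasts ran from 3 to 7 for postnatal day 1 to 4 weeks, 0 to 2 for 4 to 14 weeks, 0 to 0 for 14 weeks to 1 year and to 1.5 years, and 4 to 5 for postnatal day 1 to 1.5 years. In hearts they ran from 5 to 7, 2 to 3, 0 to 2, 0 to 4 and 4 to 7 in the same order. Between tissues they ran from 8 to 8, 6 to 7, 4 to 6, 4 to 5 and 5 to 6 over the 5 ages, and from 4 to 7 for the interaction. The replicate block was fitted for the age steps of hearts, fibroblasts at 4 weeks, the tissues at the first 2 ages and the interaction. Its numbers did not pair the samples (r over 0.1 in 2 of 7 fibroblast and 2 of 30 heart pairs). Those 2 fibroblast pairs, both at r = 0.126, mirror each other in groups of 2 libraries and are 1 value. The block gave 4 members in place of 7 for fibroblasts at 4 weeks and moved no other count for which it was fitted by more than 1.5 times. Without mitochondrial genes 22 of 50 group means of the hearts, and with library totals 36, moved by less than 1 SD. Spearman ranks kept 10 of 60 most-like genes. Library size scaling moved the median of all genes in hearts from -0.09 to -0.60 for 4 weeks against postnatal day 1. Causes were not tested. Depth limits Cnn1 and Higd1b in young fibroblasts, and 2 libraries per group limit the later ages.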
